A study of Mus musculus with 6 samples.

Results

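Voltage-gated potassium channel subunits are the 37 protein-coding genes of the Kcna, Kcnb, Kcnc, Kcnd, Kcnf, Kcng, Kcnh, Kcnq, Kcns and Kcnv families that had a read count above 0 in at least 3 of the 6 samples, out of 45777 genes listed. The members were therefore selected on measured counts, and their detection is not a result. Of 40 genes with such a symbol, Kcna7, Kcna10 and Kcng3 did not meet the rule: Kcna7 had 10 and 2 counts in 2 samples, Kcna10 had 2 and 3 counts in 2 samples, and Kcng3 had 4 counts in 1 sample. The members nearest to the rule were Kcng1, Kcns2 and Kcnv1, each with counts in 4 samples and at most 17 in any of them.

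Each channel of this class is built from 4 pore-forming subunits around a central pore, and opens when the membrane depolarizes, so that potassium leaves the cell. The pore is lined by a short stretch, the selectivity filter, that lets potassium pass and holds back sodium. In the brain these channels are best known for setting the threshold, width and rate of action potentials in neurons; astrocytes, whose membrane potential is dominated by inwardly rectifying and leak potassium channels, have been described to carry delayed rectifier and A-type currents of this class as well.

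The RNA came from astrocytes of male Aldh1l1-CreERT2; tdTomato fl/fl mice, which carry a Cre recombinase under the astrocyte promoter Aldh1l1 and, after tamoxifen on 5 days, make the red reporter tdTomato in those cells; the sample labels give the genotype as WT. At 8 weeks of age the mice were given 150 mg/kg streptozotocin (STZ), which destroys pancreatic beta cells, or citrate buffer alone (vehicle), as 1 injection, and mice above 250 mg/dl fasting glucose 5 days after STZ were taken as hyperglycemic. TdTomato-positive cells were sorted from dissociated brain, and each sample is a pool from 3 mice, with 3 pools per group. All 6 pools therefore share the Cre driver, the reporter and tamoxifen, and p-values measure the spread between pools.

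The selectivity filter is what the members share beyond their names. A filter stretch (threonine or serine, then valine, isoleucine, leucine or phenylalanine, then glycine, then tyrosine or phenylalanine, then glycine) was found exactly 1 time in the coding sequence of each of the 37 members, whose proteins were 477 to 1195 residues long (GENCODE M21 transcripts on GRCm38, the assembly behind mm10). The lines below give 51 coding bases, 5′ to 3′ on the gene's strand, around this stretch for the leading member of 5 family classes and for Kcna5, which had the largest positive log2 fold change of the members tested. Capitals mark the 15 bases of the filter.
Kcna2, chr3:107105206-107105256, plus strand: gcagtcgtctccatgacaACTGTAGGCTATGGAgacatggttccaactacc
Kcna5, chr6:126533727-126533777, minus strand: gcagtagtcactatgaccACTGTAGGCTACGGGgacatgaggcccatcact
Kcnc4, chr3:107447781-107447831, minus strand: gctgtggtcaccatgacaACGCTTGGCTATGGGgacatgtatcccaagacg
Kcnd2, chr6:21217388-21714159 with an intron inside, plus strand: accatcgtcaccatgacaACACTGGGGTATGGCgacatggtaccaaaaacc
Kcng4, chr8:119625892-119625942, minus strand: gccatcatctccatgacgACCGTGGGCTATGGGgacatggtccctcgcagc
Kcnh2, chr5:24325537-24325587, minus strand: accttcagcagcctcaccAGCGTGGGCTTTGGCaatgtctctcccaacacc

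The aromatic position of the filter separated the Kcnh class from the rest. It was coded as phenylalanine in all 8 Kcnh members, as in Kcnh2 above, and as tyrosine in the other 29 members, the electrically silent ones included. The first residue was coded as serine in 7 of the Kcnh members and as threonine in Kcnh5 and in all members outside that class. An intron split the stretch in 9 members, among them all 3 Kcnd and all 5 Kcnq members, and the remaining 28 carried it in 1 exon. Against Kcna2, the other 5 Kcna members shared 35 to 38 of the 51 bases and the 8 Kcnh members 26 to 30.

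Total counts per pool were 52529048 to 58749115, and the 37 members together held 15486 to 20143 counts per pool. In bulk RNA of sorted cells, fewer cells of a type and less RNA per cell cannot be told apart. Summed over 10 astrocyte markers, levels were 6178 to 7240 FPKM (fragments scaled to transcript length and mapped reads, as the authors computed them) in vehicle and 6472 to 7115 FPKM in STZ. The 12 neuronal markers summed to 27.8 to 53.3 and 41.9 to 58.3 FPKM, with Slc17a6 at 0 counts in 4 pools. Other cell types were also present: the 8 choroid plexus and ependymal markers summed to 4331 to 13024 FPKM in vehicle and 7069 to 11888 FPKM in STZ, almost all of it Ttr, the 8 oligodendrocyte markers to 346 to 852 and 454 to 1260 FPKM, the 5 oligodendrocyte precursor markers to 38.0 to 41.6 and 29.6 to 36.4 FPKM, and the 8 microglial markers to 241 to 352 and 248 to 344 FPKM. No marker in any of these lists was at 0 in all 6 pools. The sums of the precursor markers, carried by Olig2, did not overlap and were lower in STZ, and those of mural, lymphocyte and mast cell markers, given beside the members they moved with, did not overlap and were higher.

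Levels of the members spanned more than 3 orders of magnitude. On the FPKM scale, which is per transcript length, 4 members had a mean of at least 5 FPKM, 9 had 1 to 5, 14 had 0.1 to 1 and 10 were under 0.1 FPKM. The leading members were Kcnc4, an A-type subunit of the Kv3 family, at 8.30 FPKM ± 1.19 (SD, n = 6), Kcnd2, an A-type subunit of the Kv4 family, at 7.76 ± 1.37, Kcna2, a delayed rectifier of the Kv1 family, at 6.90 ± 1.31, and Kcng4, an electrically silent subunit, at 6.48 ± 1.64. These 4 held 57.8% of the summed FPKM of all members on average (52.3% to 62.5% over the pools).

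Further down the order were Kcnd1 at 2.59 FPKM, Kcnh2 at 2.43 and Kcnh6 at 1.94 FPKM. Between 1 and 1.5 FPKM lay Kcns3 (1.43), Kcna6 (1.26), Kcnc1 (1.24) and Kcna3 (1.22). Of 36 pairs of neighbors in this order, 35 had overlapping ranges over the 6 pools, so the exact order was not resolved. The single gap lay between Kcng4, with a lowest pool of 4.39 FPKM, and Kcnd1, with a highest pool of 3.03 FPKM, and set the leading 4 apart from the rest.

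Summed by family, the classes contributed unequally. The Kv4 family (Kcnd) held 22.0% of the members' FPKM, the Kv3 family (Kcnc) 21.2%, the Kv1 family (Kcna) 20.1%, the electrically silent modifiers 17.6%, the EAG, ERG and ELK channels (Kcnh) 12.2% and the Kv7 family (Kcnq) 5.82%. Of the Kv2 family (Kcnb), with which the silent modifiers assemble, Kcnb2 had 0.0431 FPKM ± 0.0182 (SD, n = 6), far below Kcng4 at 6.48 FPKM.

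**Figure D1:**
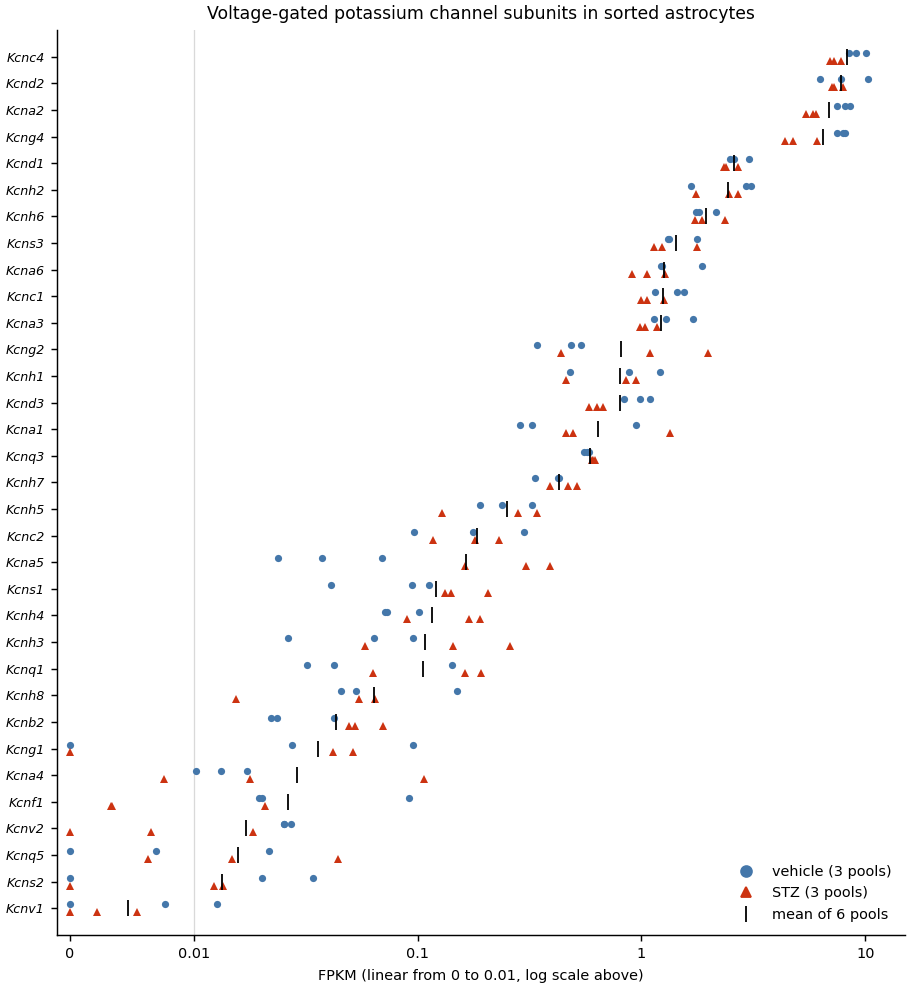
Levels of 33 members in FPKM (horizontal axis, linear from 0 to 0.01 and logarithmic above), with 1 point per pool for vehicle (circles) and STZ (triangles) and a bar at the mean of the 6 pools. Kcnc4, Kcnd2, Kcna2 and Kcng4 lead, and 5 of the scarce members have a pool at 0.

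The comparison of STZ with vehicle asks which of these channels differ in astrocytes of hyperglycemic mice. The summed level of the members was lower in every STZ pool: it was 59.1, 52.8 and 54.3 FPKM in vehicle pools 1 to 3 and 48.9, 43.9 and 45.5 FPKM in STZ pools 1 to 3. The groups did not overlap, with means of 55.4 ± 3.26 and 46.1 ± 2.57 FPKM (SD, n = 3 per group). The astrocyte markers overlapped as a sum, but of these 10 genes 7 had negative log2 fold changes, with a list median of -0.15, and 3 (Aqp4, Aldh1l1 and Slc1a2) were lower and 1 (Gjb6) higher without overlap. Aqp4, the water channel of astrocyte endfeet, had a log2 fold change of -0.48 (SE 0.12, DESeq2 adjusted p = 0.0169, edgeR adjusted p = 0.280), and Aldh1l1, whose promoter drives the Cre, -0.22 (SE 0.08). The oligodendrocyte precursor marker Olig2 was lower without overlap as well, at -0.33 (SE 0.10). The part of these cells in the members' lower sum was not tested.

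Gene by gene, 32 of the 37 members had at least 1 count in every pool and were tested. None passed edgeR's quasi-likelihood test at an adjusted p under 0.05 and a fold over 1.5, a call that 0.0224% of the 22337 genes tested reached, and the smallest adjusted p among members was 0.157 (edgeR, Benjamini-Hochberg). At an unadjusted p under 0.05, 7 members were lower in STZ, against 5.65% of all genes tested in that direction, and 3 were higher, against 5.63%. The 3 STZ pools lay below all vehicle pools in 7 members, against 9.85% of all genes, and above them in 3, against 8.64%. DESeq2, run as an alternative, called 3 members lower, Kcng4 and Kcnd3 among them, and 1 higher (Kcna5), where it called 1.05% of all genes. DESeq2's adjusted p was also under 0.05 for Kcna2, whose fold was below 1.5, and it gave no adjusted p for 5 members.

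Members were also counted by level, a split made after the values were seen and not tested. Of the 13 members with a mean of at least 1 FPKM, 12 had a negative log2 fold change, with a median of -0.37, while 50.4% of the 14047 genes tested at that level were negative, with a median of -0.0019. Kcnh6 was level at -0.0041. Leaving out 1 pool at a time, between 10 and 13 of the 13 were negative. Of the 19 members tested below 1 FPKM, 12 were positive, with a median of 0.14, against 55.9% of 8290 genes and a median of 0.07. Over all 32 the median was -0.11, against 0.01 for all genes, on the log2 scale.

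**Figure D2:**
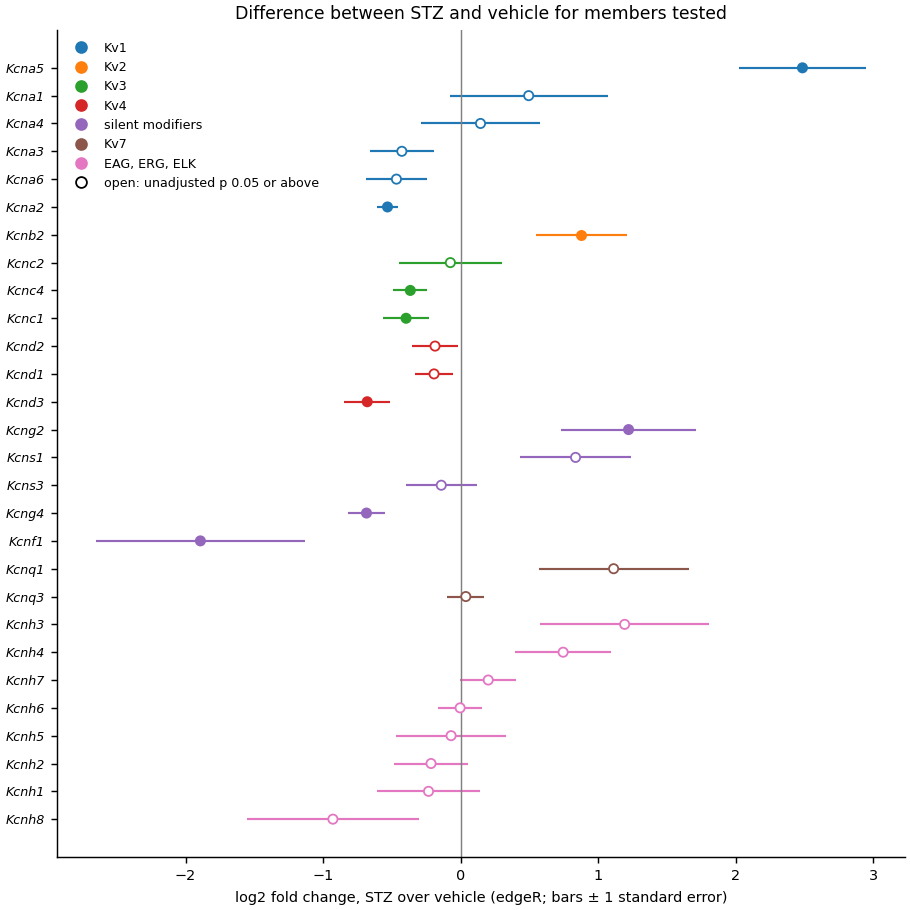
Log2 fold change of STZ over vehicle (horizontal axis) with its approximate standard error for 28 members tested, grouped by family class. Filled points have an unadjusted p under 0.05 in edgeR; 6 lie left of 0 and 3 right of 0, and none passed the adjusted threshold.

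In the Kv1 family, Kcna2 was lower and Kcna5 higher in STZ. Kcna2 (NCBI gene 16490, chromosome 3, 107090883 to 107115005 on GRCm38) codes for a delayed rectifier subunit best known from myelinated axons. Its level in CPM (read counts scaled to library size, with TMM) was 109, 103 and 95.7 in vehicle pools 1 to 3 and 66.7, 71.4 and 75.0 in STZ pools 1 to 3. Every STZ pool was below every vehicle pool, and the spread within each group was small beside the gap, 103 ± 6.71 against 71.0 ± 4.20 CPM (SD, n = 3 per group). The log2 fold change was -0.53 (SE 0.08). Its adjusted p was 0.157 by edgeR's quasi-likelihood test, the lowest of the members, and 0.000434 by DESeq2.

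Kcna5 (NCBI gene 16493, chromosome 6, 126532551 to 126535555) codes for a delayed rectifier subunit known from heart and vascular smooth muscle. It was among the scarce members, at 0.164 FPKM ± 0.152 (SD, n = 6). There were 13, 5 and 8 counts in the vehicle pools, or 0.242, 0.0963 and 0.140 CPM, and 74, 56 and 31 counts in the STZ pools, or 1.22, 0.962 and 0.527 CPM. All STZ pools were above all vehicle pools, and the log2 fold change was 2.49 (SE 0.46) with an adjusted p of 0.189 by edgeR's quasi-likelihood test and 0.00606 by DESeq2.

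Markers of blood vessels and mast cells were higher in the same pools as Kcna5. The 7 mural cell markers summed to 22.1 to 28.8 FPKM in vehicle and 37.9 to 48.9 FPKM in STZ, and 4 of the 7 (Acta2, Tagln, Myh11 and Rgs5) did not overlap between the groups. The 8 endothelial markers summed to 15.5 to 52.9 and 47.5 to 94.4 FPKM, with 4 of 8 not overlapping. The 6 lymphocyte and mast cell markers summed to 6.57 to 13.3 and 26.7 to 53.5 FPKM, where the mast cell genes Tpsb2, Cpa3 and Mcpt4 were higher and the B cell gene Cd79a lower without overlap. Their part in the level of Kcna5 was not tested.

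The other Kv1 members did not reach an unadjusted p under 0.05 in the main edgeR fit. Kcna6 was at 11.9, 7.78 and 7.80 CPM in vehicle and 7.71, 6.56 and 5.58 CPM in STZ, so the groups were parted by less than 0.1 CPM, with a log2 fold change of -0.47 (SE 0.22). Kcna6 shares 2355 exon bases with Gm26673 on the opposite strand, and whether reads were counted by strand is not given. Kcna3, known from T lymphocytes and microglia, was at 3.64, 2.45 and 2.74 CPM in vehicle and 2.11, 2.40 and 2.04 CPM in STZ. Its groups also did not overlap in CPM, with a log2 fold change of -0.43 (SE 0.23). In FPKM the groups of both Kcna6 and Kcna3 overlapped. Kcna4, a rapidly inactivating subunit, had a mean of 0.0288 FPKM and overlapped between the groups.

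Kcna1, the axonal partner of Kcna2, is given in full because it moved with another cell type's markers, a choice made after its values were seen. It was at 9.26, 2.79 and 3.14 CPM in vehicle pools 1 to 3 and at 12.4, 4.33 and 4.68 CPM in STZ pools 1 to 3, so pool 1 of each group stood far above the others and the groups overlapped. The oligodendrocyte markers were highest in the same pools, with sums of 852, 367 and 346 FPKM in vehicle and 1260, 454 and 489 FPKM in STZ. The log2 fold change of Kcna1 was 0.49 (SE 0.57) and depended on the first pools. It was -0.17 without STZ pool 1, 1.26 without vehicle pool 1 (edgeR unadjusted p = 0.0361), 0.60 without pool 1 of both groups (edgeR unadjusted p = 0.0437) and 0.54 when pool number was fitted as a block (edgeR unadjusted p = 0.0307). For Kcna2, vehicle pool 1 was the highest of the vehicle pools and STZ pool 1 the lowest of the STZ pools, and without pool 1 of both groups its log2 fold change was -0.44. The part of oligodendrocyte RNA in either gene was not tested.

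Of the Kv2 family, the delayed rectifiers that neurons cluster on the cell body, Kcnb2 was higher in STZ at an unadjusted p under 0.05. It had 21 to 41 counts in the vehicle pools and 48 to 66 in the STZ pools, or 0.391, 0.404 and 0.715 CPM against 0.841, 1.13 and 0.817 CPM. The groups did not overlap, with a log2 fold change of 0.88 (SE 0.33, edgeR unadjusted p = 0.0312, edgeR adjusted p = 0.402).

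In the Kv3 family, whose members let fast-spiking neurons repolarize quickly, the members Kcnc4 and Kcnc1 were lower in STZ. Kcnc4 (NCBI gene 99738, chromosome 3, 107438298 to 107460287) was at 51.1, 42.3 and 41.7 CPM in vehicle and 38.9, 35.8 and 30.1 CPM in STZ. The groups did not overlap, with a log2 fold change of -0.37 (SE 0.12, edgeR unadjusted p = 0.0184, edgeR adjusted p = 0.356). Kcnc1 was at 9.73, 13.0 and 12.1 CPM in vehicle and 8.39, 7.88 and 10.2 CPM in STZ. Its groups overlapped by 1 pool, with a log2 fold change of -0.40 (SE 0.17, edgeR unadjusted p = 0.0480, edgeR adjusted p = 0.441). Kcnc2 at 0.184 FPKM had a log2 fold change of -0.08 (SE 0.37).

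The Kv4 family carries the A-type current that opens below the spike threshold, and its 3 members all had negative log2 fold changes. Only Kcnd3 was at an unadjusted p under 0.05 in the main edgeR fit. Kcnd3 (NCBI gene 56543, chromosome 3, 105451890 to 105674002) was at 6.97, 9.07 and 8.20 CPM in vehicle and 5.03, 5.37 and 4.73 CPM in STZ. All STZ pools were lower, with a log2 fold change of -0.68 (SE 0.17), an adjusted p of 0.282 by edgeR's quasi-likelihood test and 0.0123 by DESeq2. Kcnd3 shares 165 exon bases with Kcnd3os on the opposite strand, so reads there could belong to either gene. Kcnd2, with roughly the level of Kcnc4 by FPKM, was at 59.5, 36.0 and 44.7 CPM in vehicle and 43.7, 39.1 and 40.4 CPM in STZ. The groups overlapped, and its log2 fold change of -0.19 (SE 0.17) turned to 0.02 without vehicle pool 1. Kcnd1 had a log2 fold change of -0.19 (SE 0.14).

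The electrically silent subunits (Kcnf, Kcng, Kcns and Kcnv) form no working channel alone and alter Kv2 channels when they join them. Kcng4 (NCBI gene 66733, chromosome 8, 119623854 to 119635680) was at 32.3, 30.9 and 33.1 CPM in vehicle and 17.1, 18.6 and 24.1 CPM in STZ. The vehicle pools lay within 3 CPM of each other and all STZ pools below them, with a log2 fold change of -0.69 (SE 0.13), an adjusted p of 0.204 by edgeR's quasi-likelihood test and 0.00184 by DESeq2. Kcns3, the next by level at 1.43 FPKM, had overlapping groups and a log2 fold change of -0.14 (SE 0.26).

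Kcng2 was higher in STZ at an unadjusted p under 0.05 without separating the groups. It was at 1.06, 1.48 and 1.66 CPM in vehicle and 5.46, 3.04 and 1.31 CPM in STZ, so the difference lay in STZ pools 1 and 2, and STZ pool 3 was within the vehicle range. The log2 fold change was 1.22 (SE 0.49, edgeR unadjusted p = 0.0388, edgeR adjusted p = 0.418), and 0.63 without STZ pool 1. STZ pools 1 and 2 were also the highest in the lymphocyte and mast cell markers, at 53.2 and 53.5 FPKM. These markers were at 26.7 FPKM in STZ pool 3, where Kcng2 was not raised, and at 6.57 to 13.3 FPKM in vehicle. The endothelial markers were at 94.4 and 73.8 FPKM in STZ pools 1 and 2, 47.5 FPKM in STZ pool 3 and 15.5 to 52.9 FPKM in vehicle. The part of these cells in the level of Kcng2 was not tested, and Kcng2 shares 272 exon bases with D330025C20Rik.

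The remaining silent subunits rested on few counts. Kcns1 had 7, 18 and 16 counts in vehicle and 22, 34 and 24 in STZ, or 0.130, 0.347 and 0.279 against 0.363, 0.584 and 0.408 CPM. The groups did not overlap but lay close, with a log2 fold change of 0.84 (SE 0.40). Kcnf1 had 6, 25 and 7 counts (0.112, 0.482 and 0.122 CPM) in vehicle and 2, 7 and 2 counts (0.0330, 0.120 and 0.0340 CPM) in STZ. Its fitted log2 fold change of -1.89 (SE 0.76, edgeR unadjusted p = 0.0393) came from pools partly below the 3 counts, or 0.0511 to 0.0571 CPM, that mark the limit of detection by counting error. It was -0.90 without vehicle pool 2, the highest of the pools (edgeR unadjusted p = 0.173), and -2.74 without STZ pool 2. Kcng1, Kcns2, Kcnv1 and Kcnv2 had at least 1 pool at 0 counts and at most 17 counts in any, and were not tested. Their mean levels were 0.0360, 0.0133, 0.0047 and 0.0171 FPKM.

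In the Kv7 family, known for the slow M-current of neurons and for currents of heart, ear and vessel wall, Kcnq3, an M-current subunit, was the steadiest member, at 7.16, 7.32 and 7.48 CPM in vehicle and 7.58, 7.47 and 7.49 CPM in STZ, with a log2 fold change of 0.04 (SE 0.13). Kcnq1, the pore of a slow cardiac current, had 6 to 21 counts in vehicle and 13 to 37 in STZ, with overlapping groups and a log2 fold change of 1.11 (SE 0.55). It shares 121 exon bases with Kcnq1ot1 on the opposite strand, so reads there could belong to either gene. Kcnq5 had a mean of 0.0156 FPKM, was at 0 counts in 1 pool and was not tested.

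**Figure D3:**
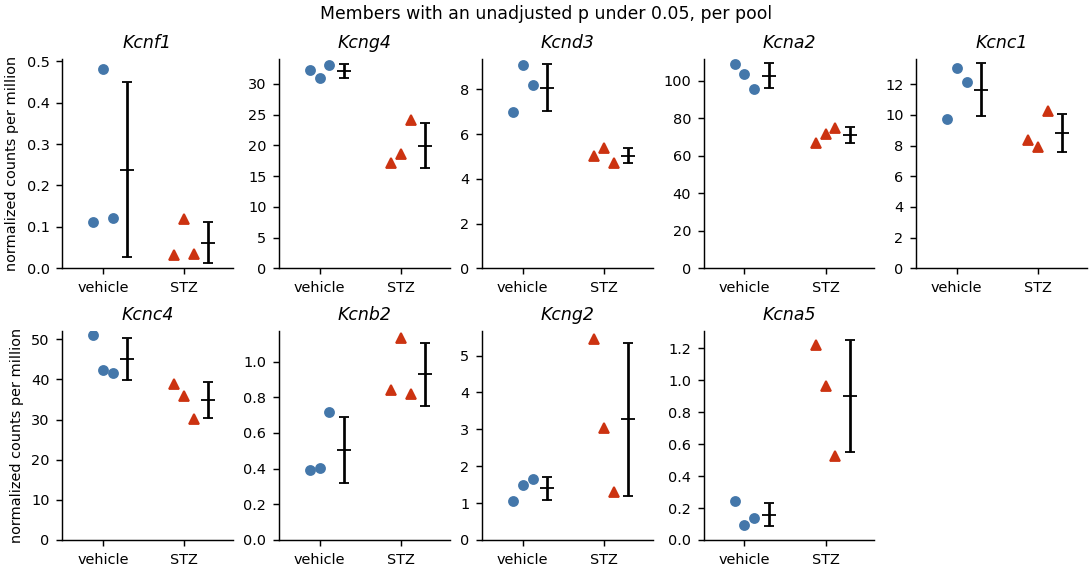
Normalized CPM (vertical axes, from 0) in each pool for 9 members with an unadjusted p under 0.05, ordered by log2 fold change. Circles are vehicle pools, triangles STZ pools, and bars give the mean ± SD of 3 pools; the groups overlap for Kcnf1, Kcnc1 and Kcng2 and are apart for the other 6.

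None of the 8 EAG, ERG and ELK members reached an unadjusted p under 0.05 in the main edgeR fit. Kcnh2, the ERG channel of cardiac repolarization, was at 6.002, 10.7 and 10.9 CPM in vehicle and 9.18, 5.92 and 8.63 CPM in STZ, with a log2 fold change of -0.22 (SE 0.27). Vehicle pool 1 and STZ pool 2 were the low ones, and the groups overlapped. Kcnh1, the EAG channel, had the same low pools, at 3.77, 9.34 and 6.79 CPM in vehicle and 6.30, 3.49 and 7.13 CPM in STZ. These were also the 2 pools lowest in choroid plexus and ependymal markers, at 4331 FPKM in vehicle pool 1 and 7069 FPKM in STZ pool 2, and the part of those cells was not tested.

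Kcnh6, a second ERG subunit at 1.94 FPKM, was at 10.8, 11.0 and 13.2 CPM in vehicle and 13.7, 10.2 and 11.0 CPM in STZ and had the log2 fold change closest to 0. Kcnh7 at 0.427 FPKM, Kcnh5 at 0.250, Kcnh4 at 0.115, Kcnh3 at 0.108 and Kcnh8 at 0.0638 FPKM had overlapping groups, with log2 fold changes from -0.93 (Kcnh8) to 1.19 (Kcnh3). Kcnh7 shares 696 exon bases with the protein-coding gene Gca on the opposite strand, so reads there could belong to either gene.

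**Figure D4:**
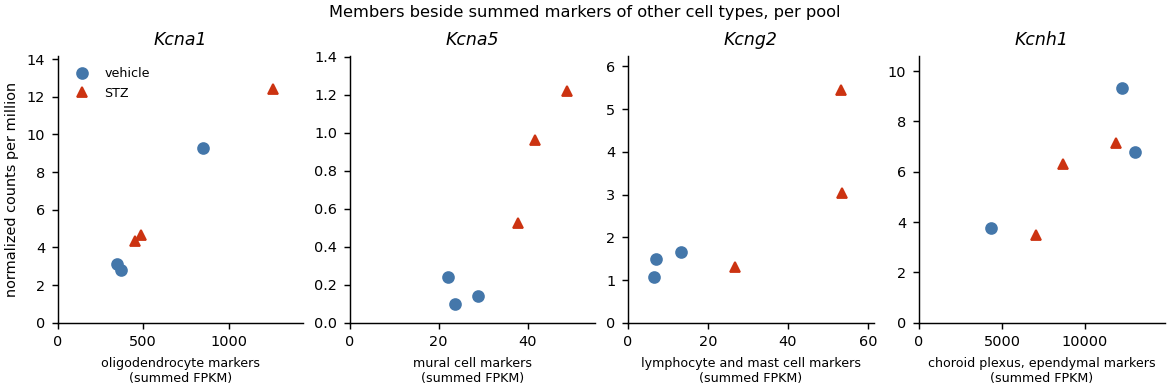
Normalized CPM of Kcna1, Kcna5, Kcng2 and Kcnh1 (vertical axes) against the summed FPKM of markers of oligodendrocytes, mural cells, lymphocytes and mast cells, and choroid plexus and ependyma (horizontal axes), 1 point per pool. Kcna1 is highest in the pools with 852 and 1260 FPKM of oligodendrocyte markers, and Kcna5 in the STZ pools, which have 37.9 to 48.9 FPKM of mural cell markers.

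Of the members with values in every pool by the naming rule, 4 of those given here kept an unadjusted p under 0.05 in all 15 settings run, the alternatives and each left-out pool included. These were Kcna2, Kcng4 and Kcnd3, lower in STZ, and Kcna5, higher in STZ. Their log2 fold changes over the settings were -0.59 to -0.44 for Kcna2, -0.84 to -0.58 for Kcng4, -0.78 to -0.43 for Kcnd3 and 0.57 to 2.90 for Kcna5, whose lowest value came from log2(TPM + 1), where the pseudocount outweighs its level.

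Auxiliary subunits and partners bind these channels and change their gating or place them in the membrane. Of 17 such genes in the table, 16 were tested, with a median log2 fold change of -0.11. At an unadjusted p under 0.05 (edgeR), none was higher and 2 were lower, against 5.63% and 5.65% of all genes tested. Without overlap, none was higher and 3 were lower, against 8.64% and 9.85% of all genes. The highest were Kcnip3, a calcium-binding partner of Kv4 channels, at 63.1 FPKM ± 4.21, and Kcne2, a single-pass subunit, at 45.9 ± 21.0 (SD, n = 6), both far above any pore-forming member. Kcnip3 was at 189 to 214 CPM in vehicle and 168 to 182 CPM in STZ, without overlap and with an unadjusted p of 0.0504 (edgeR). Kcne2 was at 41.6, 135 and 118 CPM in vehicle and 59.5, 47.9 and 96.4 CPM in STZ and so had the low pools of the choroid plexus markers.

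The genes lower at an unadjusted p under 0.05 were Lgi1, a secreted protein that acts on Kv1 channels at synapses, and Kcne1l, a single-pass subunit. Lgi1 was at 130 to 159 CPM in vehicle and 121 to 128 CPM in STZ, with a log2 fold change of -0.23 (SE 0.09, edgeR adjusted p = 0.402). Kcne1l was at 34.1 to 37.9 and 29.5 to 34.0 CPM, with a log2 fold change of -0.21 (SE 0.09, edgeR adjusted p = 0.428). In both genes the groups did not overlap but nearly touched.

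Potassium channels outside the class were compared as well. Of 37 inwardly rectifying, leak and calcium- or sodium-activated pore genes, 28 were tested, with a median log2 fold change of -0.06. At an unadjusted p under 0.05 (edgeR), 1 was higher and 5 were lower, against 5.63% and 5.65% of all genes tested. Without overlap, 1 was higher and 6 were lower, against 8.64% and 9.85% of all genes. The most abundant were Kcnk1, a leak channel, at 327 FPKM ± 25.8 and Kcnn2, a calcium-activated channel, at 99.1 ± 12.2 (SD, n = 6), and Kcnj1, Kcnk15 and Kcnk16 were at 0 in all pools. Kcnj10, known as the main inward rectifier of astrocytes, was at 200, 166 and 160 CPM in vehicle and 143, 134 and 154 CPM in STZ. It was lower without overlap, with a log2 fold change of -0.29 (SE 0.10, edgeR adjusted p = 0.389). By level Kcnj16, another inward rectifier, stood above it, with means of 63.7 FPKM for Kcnj16 and 26.5 FPKM for Kcnj10. The groups of Kcnj16 overlapped, with a log2 fold change of -0.13 (SE 0.15).

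Kcnt1, a sodium-activated channel, was the higher gene, at 42.4, 38.1 and 39.6 CPM in vehicle and 91.2, 60.4 and 45.3 CPM in STZ, with a log2 fold change of 0.71 (SE 0.23, edgeR adjusted p = 0.345). The other genes lower at an unadjusted p under 0.05 were Kcnn1 at -0.39, Kcnj3 at -0.73, Kcnk10 at -0.42 and Kcnj14 at -0.35 on the log2 scale. In all of them the groups did not overlap.

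The position of the lower members was looked at after their values were seen. Kcnd3, Kcna3, Kcna2 and Kcnc4 lie along 2008 kb of chromosome 3 (105451890 to 107460287), which also holds Kcna10. In all 4 the STZ pools were below the vehicle pools in CPM without overlap. For Kcna3 the margin was small, 2.45 CPM in vehicle pool 2 against 2.40 CPM in STZ pool 2. In FPKM the groups of Kcna3 overlapped, with 1.14 in vehicle pool 2 and 1.17 in STZ pool 2. Of the other 27 genes tested in that stretch, 8 had negative and 19 positive log2 fold changes. Without overlap, 2 were lower (Inka2 at -0.46 and Gm38712 at -0.93) and 1 was higher (Chil3 at 2.87). Within the last 424 kb, from Kcna3 to Kcnc4, 1 of the other 6 genes tested was negative, Gm38712 beside Kcna3, and 5 were positive. The second cluster, of Kcna5, Kcna1 and Kcna6 on 208 kb of chromosome 6 (126532551 to 126740834), held members that were higher, overlapping and lower.

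**Figure D5:**
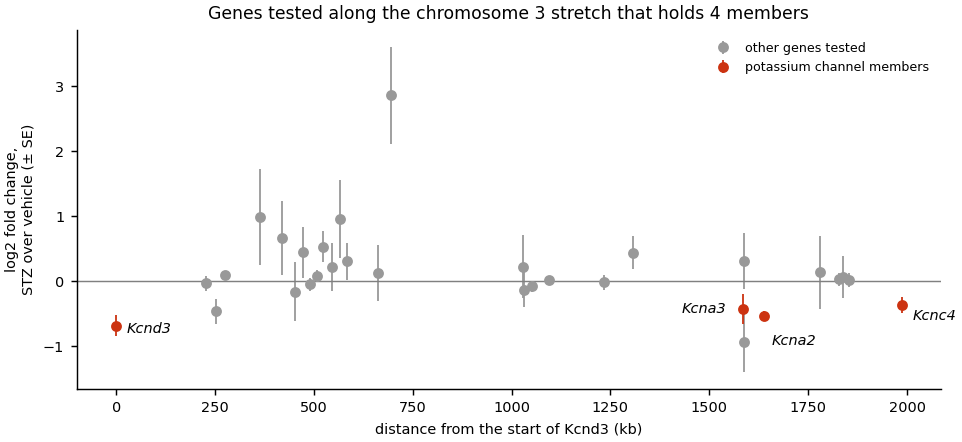
Log2 fold change of STZ over vehicle (vertical axis, ± SE) for genes tested along the chromosome 3 stretch, by distance from the start of Kcnd3 in kb. The 4 potassium channel members lie between -0.68 and -0.37. Of the other 27 genes, 19 lie above 0 and 8 below, Gm38712 at -0.93 among them.

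Promoters were described by short motifs only. RefSeq (GRCm38.p6) windows from 250 bases before to 50 bases after a transcript start were at hand for 22 members, 27 windows in all. The GC box GGGCGG, searched on both strands, was in a window of 16 of the 22 members, Kcna2, Kcna3 and Kcnc4 among them and Kcnd3, Kcng4 and Kcna5 not, and in 17 of the 27 windows, against 35.7% of 32851 windows of all genes. The letters TATAAA were in no member window (13.6% of all windows), the E-box CACGTG in 1, of Kcnh4 (7.15%), and TGTTTAC, a FOXO site, and TGACGTCA, a cAMP response element, in none (3.65% and 1.79%).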

How the data were processed

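RNA sequencing of sorted astrocytes was analysed for 3 vehicle and 3 STZ pools. The submitters' processing notes name bcl2fastq 2.20.0, Trimmomatic 0.38, HISAT2 2.1.0, SAMtools 1.9 and StringTie 2.1.3b with mm10; the annotation is not given in the sources used here. The library kit is given as SMART-Seq in the labels and as TruSeq v2 with SMART-Seq v4 in the methods. The authors deposited whole-number read counts per gene, FPKM and TPM. The deposited counts were used for tests, the deposited FPKM for levels and the deposited TPM for alternatives only. A step of the study that removed outlier genes is not described and was not repeated. All measurement columns belonged to mapped samples.

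Members and lists were chosen with earlier results of these data known. Genes with a count of 1 or more in all pools (22337) entered the quasi-likelihood test of edgeR 4.0.16 (R 4.3.3; TMM, group as the only factor, two-sided, Benjamini-Hochberg over all genes tested); a call needed an adjusted p under 0.05 and a fold over 1.5. The standard error is approximate, the log2 fold change divided by the square root of F. Normalized CPM are counts over TMM-scaled library sizes. Alternatives were DESeq2 1.42.0, its size factors in edgeR, no filter, filterByExpr, limma 3.58.1 on log2(TPM + 1) and log2(TPM + 0.1), the replicate number as a block, and each pool left out; chosen after seeing the data were DESeq2 by adjusted p alone and leaving out pool 1 of both groups. The procedures were tested on simulated counts. The depth gives 3 counts a value of 0.0511 to 0.0571 CPM, which covers counting error only.

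Values in every pool are given for the member highest by FPKM in each family class, members at an unadjusted p under 0.05 and members whose groups did not overlap at 0.1 FPKM or more; of the auxiliary and other channel lists, genes at an unadjusted p under 0.05 and the 2 highest. Some members are counted in totals but not reported here. Kcna1, Kcnh1, Kcnh6 and Kcnq3, and Kcnj16 of the other channels, were added after their values were seen. Gene positions are RefSeq's on GRCm38.p6, strand and coding sequence GENCODE M21's. Overlapping genes on either strand cannot be told apart, since no source used here gives the strand setting of the counting.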

Additional observations from a re-analysis of the deposited data

How the results depend on the processing

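No member passed edgeR's adjusted threshold in the main setting, with any pool left out (0 in each) or under any alternative but DESeq2, which called 4, or 5 by adjusted p alone; 10 members had an unadjusted p under 0.05. That count was 6 under limma with log2(TPM + 0.1) and 7 to 10 with 1 pool left out. Besides the members that kept an unadjusted p under 0.05 throughout, the largest p over the settings was 0.0529 for Kcnc4, 0.147 for Kcnc1, 0.173 for Kcnf1, 0.114 for Kcnb2 and 0.339 for Kcng2. Members with groups that did not overlap numbered 10, 12 to 14 with 1 pool left out and 20 without pool 1 of both groups, where 2 pools against 2 part more easily. The members' median log2 fold change was -0.20 without a filter, -0.19 without pool 1 of both groups and -0.23 (without STZ pool 1) to -0.023 (without STZ pool 2) with 1 pool left out. Kcnd2 ranged from -0.36 (without vehicle pool 2) to 0.022, reversed, without vehicle pool 1. The auxiliary list had 1 gene at an unadjusted p under 0.05 under both limma settings and 0 (without STZ pool 1) to 4 (without vehicle pool 1) with 1 pool left out, and the other potassium channels 3 without pool 1 of both groups and 2 (without STZ pool 1) to 6. The causes were not tested. Of 223 further values of named members, 218 kept their direction and their side of the call by adjusted p and fold. No member met that call in the main setting, so keeping this side says little about how stable a value is. By unadjusted p, Kcnc4, Kcnc1, Kcnf1, Kcnb2 and Kcng2 changed side of 0.05 in at least 1 setting, as their largest p shows. Kcna6, Kcns1, Kcnd2, Kcnh2 and Kcna1 changed side the other way, from above 0.05 in the main setting to under it in at least 1 other. The smallest p was 0.0363 for Kcna6 (DESeq2) and 0.0452 for Kcns1 (limma, log2(TPM + 1)). It was 0.0379 for Kcnd2 (edgeR without vehicle pool 2) and 0.0442 for Kcnh2 (edgeR without pool 1 of both groups).

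Over all genes, pools with the same number did not deviate together (correlations of -0.10, -0.16 and -0.18), and the labels give no other tie between them. Kcna1 and the oligodendrocyte markers were an exception, high in pool 1 of both groups, and the block moved the edgeR unadjusted p of Kcna1 from 0.415 to 0.0307. With the replicate number as a block, 0 members were called, 10 had an unadjusted p under 0.05, the median was -0.14, the auxiliary list had 1 gene and the other potassium channels 3.

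At this depth, members under 0.1 FPKM rested on at most 66 counts per pool.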
